A study of Mus musculus with 31 samples.

Results

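Livers of 10-month and 4-month mice, Ames dwarf and wild type pooled, were compared to ask which genes changed in early adult life in both genotypes. The arrays were chosen by the age in their titles, which gave 20 of the 31 arrays of the series, and the older were set against the younger with genotype as a covariate. The 10-month arrays were 5 of Ames dwarf mice and 5 of wild-type controls, and so were the 4-month arrays. Ames dwarf mice are a long-lived mutant strain, and wild-type mice served as their controls at each age. RNA came from a piece of snap-frozen liver, and each array held 1 animal by the names in the labels. The labels give no sex, batch or time of day for any animal and no detail of housing or diet. A free-text label describes a fly tissue, whereas the labels for organism, source and title give mouse liver, which was taken as right.

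Few genes passed the test between these ages. Of 14861 genes tested over both genotypes, 18 passed a limma adjusted p of 0.05, 8 of them higher and 10 lower at 10 months. Id1, a target of bone morphogenetic protein signalling, Smad7, an inhibitor of the same family of receptors, Sdc4, a cell-surface proteoglycan, and Ndufc1, a subunit of respiratory complex I, fell. Igha, the heavy chain of immunoglobulin A, and Ap3m1, which sorts proteins to lysosomes, rose. The differences were small, from -0.92 for Id1 to 0.86 for Igha as 10 minus 4 months of log2 signal, and no difference between the genotypes in this change passed the test. Signal is the brightness of a gene's probe set on the array, in arbitrary units that can be compared between arrays but not between genes.

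Ames dwarf mice are small and lack most of their growth hormone and prolactin, and also the hormone that drives the thyroid. The liver is a main target of growth hormone, which drives its output of Igf1. The series calls its mice of these ages young and middle aged. Liver ageing at later ages is known for a gain of immune cell transcripts and for altered mitochondrial and matrix genes.

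All 20 arrays carried the liver's own transcripts. The summed signal of 15 hepatocyte markers was 645500 to 775600 in dwarf at 4 months, 592500 to 762100 in dwarf at 10 months, 541100 to 692800 in wild type at 4 months and 503800 to 644600 in wild type at 10 months. Igf1, the check of the dwarf label, was 1315 to 2548 in dwarf and 15170 to 22600 in wild type at 4 months, and 868 to 3586 and 12150 to 14790 at 10 months, so the genotypes did not overlap. In the fit of these 20 arrays, limma called 2405 genes (16.2% of those tested) between the genotypes. The arrays' median signals lay between 168.1 and 210.2, correlations between arrays ran from 0.884 to 0.934, and the first principal component, 19.9% of the variance, separated the genotypes. Xist, the X-inactivation transcript of female cells, was at 5582 and 7336 on dwarf replicates 1 and 4 at 10 months and at most 131.7 on the other 18. Of these, replicate 4 had the Y-linked Eif2s3y at 44.28 and replicate 1 at 707.8, against 660.7 to 1163 on the other 18. Animal names that start with Df or JP mark all 10 arrays of 4 months, but 2 of 5 dwarf and 3 of 5 wild-type arrays of 10 months, and what the names stand for is not stated in the labels.

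The 18 genes were 0.121% of those tested, 0.0538% being higher and 0.0673% lower at 10 months. At an unadjusted p under 0.05 there were 1653 genes, 11.1% of those tested, of which 880 were higher and 773 lower. For most genes the data bounded the difference to within 1 log2 unit. The median standard error was 0.16 on the log2 scale, and for 13049 genes (87.8%) the 95% interval of the difference lay within 1 log2 unit of 0 on both sides. For 7782 genes (52.4%) it lay within 0.5. Among the 18 genes the largest difference was -0.92 for Id1 and the smallest 0.38 for Ids, all inside 1 log2 unit. Changes of that size were therefore not excluded for many genes. The estimated difference exceeded 1 log2 unit for 33 genes, 25 higher and 8 lower, and 0 of these 33 passed the test. After the 18 genes the next adjusted p was 0.0837, and 52 genes had an adjusted p under 0.1. The count of 18 was not stable to single arrays. Without replicate 2 of dwarf at 4 months it was 2, without replicate 1 of that group 5, and without wild-type 4-month replicates 1 and 3 in turn 10 and 11. Without dwarf replicate 4 at 10 months it was 11, and without wild-type 4-month replicates 5 and 4 in turn it was 31 and 37.

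**Figure D1:**
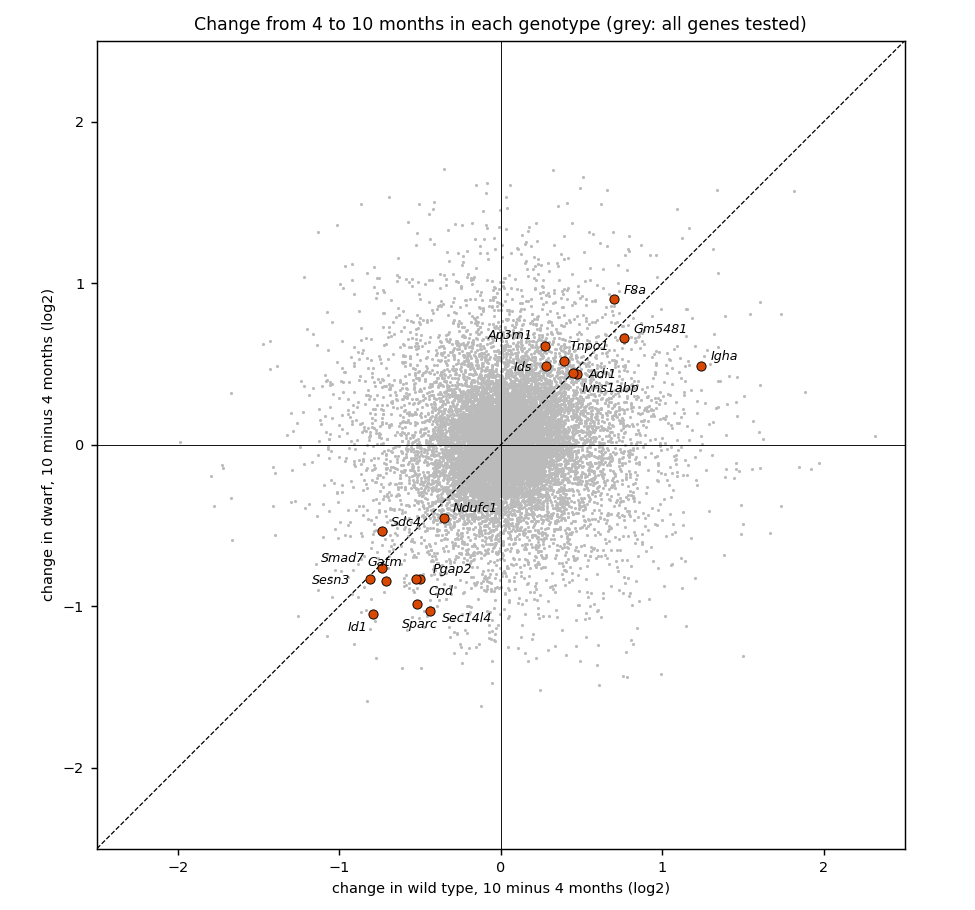
Each point is 1 of the 14861 genes, with its log2 difference of 10 minus 4 months in wild type on the horizontal axis and in dwarf on the vertical axis, and the 18 genes that passed in the pooled fit are marked, with a dashed line where both are equal. All 18 lie on the same side of 0 in both genotypes, from Id1 at -1.05 in dwarf and -0.79 in wild type to Igha at 0.49 and 1.24. They were chosen on the pooled change, which favours the same side. Over all genes, 8093 of 14861 had the same sign in both genotypes.

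The largest fall among the 18 genes was that of Id1, which encodes an inhibitor of basic helix-loop-helix transcription factors and is a direct target of bone morphogenetic protein (BMP) signalling. In dwarf, its signal was 693, 1335, 1525, 1710 and 2097 at 4 months and 539.7, 542, 700, 763 and 802 at 10 months. In wild type it was 665, 878, 931, 1326 and 1400 at 4 months and 367, 554, 650.4, 674 and 681 at 10 months. In each genotype 1 young animal lay within the range of the older ones, and the other 4 lay above it. Id1 fell by 0.92 on the log2 scale over both genotypes (SE 0.17, 95% interval -1.27 to -0.57, limma adjusted p = 0.0222), with -1.05 in dwarf and -0.79 in wild type.

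Smad7, an inhibitory Smad that BMP and transforming growth factor-beta (TGF-beta) signalling induce and that in turn blocks their receptors, fell as well. Its signal in dwarf was 486, 796, 889, 959.6 and 977 at 4 months and 301, 469.6, 481, 495 and 637 at 10 months, and in wild type 598, 713, 759, 929.7 and 945 at 4 months and 331, 379, 433, 574 and 661 at 10 months. All 10 older animals were below the 4-month mean of their own genotype, although the ranges overlapped in both (fell by 0.75, SE 0.15, limma adjusted p = 0.0358). Its call was the least stable of the 18 and held in 15 of 38 other settings, among them 6 of the 20 that left out 1 array (limma adjusted p up to 0.0834). Other genes of the same signalling, chosen after the values of Id1 and Smad7 were seen, did not pass. Id3, a relative of Id1, had a difference of -0.54 (limma adjusted p = 0.186), with wild-type values of 1875, 2164, 2273, 2533 and 3839 at 4 months against 937, 1124, 1270, 1333 and 2694 at 10 months. Id2 had -0.26, the other inhibitory Smad, Smad6, -0.27, the decoy receptor Bambi -0.27 and Hamp, the iron hormone that BMP signals induce in hepatocytes, -0.09.

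Sdc4 had the smallest adjusted p of all genes. It encodes syndecan 4, a cell-surface proteoglycan whose heparan sulfate chains hold growth factors. Its signal in dwarf was 4612, 4704, 5815, 6145 and 6255 at 4 months and 2949, 3688, 3794, 3889 and 4701 at 10 months, and in wild type 5643, 5838, 6003, 6261 and 7372 at 4 months and 2743, 3533, 3821, 4231 and 4510 at 10 months. The wild-type ranges did not meet, and those of dwarf overlapped only in that the highest older animal was above the lowest young animal. Sdc4 fell by 0.64 (SE 0.10, 95% interval -0.83 to -0.44, limma adjusted p = 0.00938), a fold of 1.55 in favour of 4 months. It passed with each of the 20 arrays left out in turn and in 35 of 38 other settings, and its second probe set stood at -0.57.

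Sparc, a secreted collagen-binding protein of the extracellular matrix, was the only gene of the list of collagen and stellate cell markers that passed. Dwarf values of 2027, 2239, 2426, 3057 and 3551 at 4 months stood above 931, 1181, 1380, 1536 and 1623 at 10 months without overlap. Wild-type values of 1156, 1527, 1747, 2007 and 2438 at 4 months and 930.2, 959, 1121, 1364 and 1787 at 10 months overlapped, and 1 older animal was above the 4-month mean (fell by 0.75 over both genotypes, SE 0.15, limma adjusted p = 0.0285). Of its other probe sets, 1 had a difference of -0.48 and 1 of 0.32, neither past the test.

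Collagen genes themselves lay mostly below 0. Of 27 tested members of the collagen and stellate cell list, 22 were below 0, against 46.5% of all genes. The list's median was -0.18 against 0.02 for all genes. Col4a2, a basement membrane collagen, was 417, 686, 936, 993 and 1160 in dwarf at 4 months and 450.1, 528, 551, 626 and 654 at 10 months, and 563, 572, 579, 665 and 711 at 4 months and 243, 433, 467, 507 and 555 at 10 months in wild type, where the ranges did not overlap (difference -0.51, limma adjusted p = 0.207). Its partner chain Col4a1 had -0.40 and the fibrillar collagen Col3a1 -0.47, and neither passed. The summed signal of the whole list was 26620 to 36680 in dwarf at 4 months and 23910 to 30460 at 10 months, and 22400 to 27090 at 4 months and 18370 to 25260 at 10 months in wild type. In whole liver, fewer cells of a type and less RNA per cell cannot be told apart.

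Ndufc1, an accessory subunit of complex I of the mitochondrial respiratory chain, fell in both genotypes without overlap. Its signal was 9545, 9548, 10860, 11790 and 11930 in dwarf at 4 months and 6406, 7417, 7878, 8507 and 9136 at 10 months. In wild type it was 7905, 8435, 8689, 8698 and 8730 at 4 months and 5950, 6122, 6136, 7425 and 7818 at 10 months. The fall was modest and even, -0.45 in dwarf and -0.35 in wild type on the log2 scale (fell by 0.40 over both, SE 0.07, 95% interval -0.55 to -0.25, limma adjusted p = 0.0222). Of all genes, 2 separated the ages without overlap in the same direction in both genotypes (0.0135%), Ndufc1 and Ivns1abp.

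The oxidative phosphorylation list, which does not hold Ndufc1, had 60 members tested and 0 past the test with limma. Of these, 55 were below 0, with a median of -0.18 in the pooled fit, -0.18 in dwarf and -0.16 in wild type. At an unadjusted p under 0.05, 32 members were lower and 1 higher, whereas over all genes 5.2% were lower and 5.92% higher, and in the brightest 10% of genes 13.8% were lower. The smallest adjusted p was 0.127. Complex I subunits further below 0 than the list's median included Ndufb7 at -0.39, Ndufs8 at -0.36 and Ndufs7 at -0.34, each smaller in size than Ndufc1 at -0.40. Genes of this list are among the brightest on the array. Of the 60 members, 57 lay in the brightest 10% of genes, in which 59.9% of genes were below 0 and the median difference was -0.03. Quantile normalization, which gives every array the same distribution of signals, brought the list's median to -0.10. The part of array brightness in this shift was not tested.

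Metabolic enzymes were few among the 18 genes. Gatm, the first enzyme of creatine synthesis, was 345, 412, 414, 498 and 553 in dwarf at 4 months and 167, 223, 237, 239.6 and 355 at 10 months, and in wild type 319, 383, 389, 394 and 432 at 4 months and 185, 192, 226, 231 and 320.4 at 10 months. In each genotype the highest older animal just reached the lowest young animal, and all others were apart (fell by 0.78, SE 0.14, limma adjusted p = 0.0222). Sec14l4, a lipid-binding protein of the Sec14 family, was 1132, 1284, 1360, 1722 and 1800 in dwarf at 4 months and 561, 662, 738, 740.2 and 807 at 10 months, with no overlap. Its wild-type values of 1212, 1306, 1377, 1594 and 1851 at 4 months and 734, 825, 1171, 1316 and 1459 at 10 months overlapped (-1.03 in dwarf, limma adjusted p = 0.027, and -0.44 in wild type, limma adjusted p = 0.581). The difference between these changes was not past the test (interaction -0.59, limma adjusted p = 0.758).

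Adi1, a dioxygenase of the methionine salvage pathway, rose by 0.45 (SE 0.09, limma adjusted p = 0.0285). Its mean signal was 1696 ± 245 (SD, n = 5) in dwarf at 4 months and 2296 ± 312 at 10 months, and 2096 ± 323 and 2913 ± 411 in wild type. Its other 2 probe sets had 0.15 and 0.08. The wild-type ranges lay just apart, with the highest young animal at 2624 and the lowest older animal at 2631. Sesn3, a sestrin that stress and FoxO factors induce and that restrains the growth kinase mTORC1, fell by 0.82 (SE 0.15, limma adjusted p = 0.0222). Its signal was 1819, 2515, 2645, 2994 and 3452 in dwarf at 4 months and 957, 1322, 1615, 1810 and 1851 at 10 months, and 1437, 2053, 2248, 2408 and 2678 at 4 months and 849, 878, 1198, 1649 and 1693 at 10 months in wild type. The lowest young animal of each genotype lay among the older ones. The other probe set of Sesn3 showed -0.05, so the fall rests on 1 of 2 probe sets.

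Of the other genes, Ap3m1, the medium subunit of the AP-3 adaptor that carries cargo to lysosomes, rose. In dwarf it was 1736, 1752, 1814, 1882 and 2432 at 4 months and 2697, 2715, 3000, 3097 and 3121 at 10 months, without overlap, and in wild type 1461, 1510, 1616, 1662 and 1696 at 4 months and 1645, 1827, 1995, 2002 and 2186 at 10 months. In wild type the lowest older animal fell among the young and the other 4 were above them (0.44 over both genotypes, SE 0.08, limma adjusted p = 0.0222). Ids, a lysosomal sulfatase that degrades heparan and dermatan sulfate, rose by 0.38 (SE 0.08, limma adjusted p = 0.0285). In dwarf it spanned 1072 to 1190 at 4 months and 1422 to 1781 at 10 months, and in wild type 821 to 1079 at 4 months and 1059 to 1293 at 10 months. The dwarf ranges were apart and those of wild type overlapped slightly. Its other 3 probe sets had -0.03, 0.13 and 0.39.

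Tnpo1, an import receptor that carries proteins into the nucleus, rose by 0.45 (SE 0.08, limma adjusted p = 0.0222). It spanned 919 to 1414 at 4 months and 1338 to 1685 at 10 months in dwarf, and 933 to 1204 at 4 months and 1236 to 1599 at 10 months in wild type, which did not overlap. Its other 2 probe sets had -0.09 and 0.24. Cpd, a carboxypeptidase of the trans-Golgi, fell by 0.68 (SE 0.13, limma adjusted p = 0.0222) on the probe set of highest signal, but its other 5 probe sets had -0.02, -0.06, -0.69, 0.25 and 0.03. Pgap2, which remodels the lipid of glycosylphosphatidylinositol anchors, fell by 0.67 (SE 0.13, limma adjusted p = 0.0285). In dwarf it was 2078, 2158, 2252, 2272 and 2287 at 4 months and 1119, 1146, 1265, 1308 and 1355 at 10 months. In wild type it was 699.8, 959.2, 1555, 1587 and 1799 at 4 months and 707.1, 766, 919.5, 960.7 and 1071 at 10 months. There the ages overlapped, the lowest young animal being below all older ones (-0.83 in dwarf, -0.50 in wild type). Its other probe sets had 0.14 and -0.06.

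Among immune genes, Igha rose. It is the constant region of the immunoglobulin A heavy chain and a product of plasma cells. In wild type its signal was 311, 372, 405, 426 and 435 at 4 months and 767, 961, 973, 986 and 1018 at 10 months. In dwarf it was 444, 744, 771, 843 and 927 at 4 months and 828, 849, 969, 1105 and 1491 at 10 months. All older wild-type animals were above all young ones, while the dwarf ranges overlapped and young dwarf animals were already above the young wild type. Igha rose by 0.86 over both genotypes (SE 0.15, 95% interval 0.56 to 1.17, limma adjusted p = 0.0222), with 1.24 in wild type (limma adjusted p = 0.00643) and 0.49 in dwarf (limma adjusted p = 0.316). The difference between these was not past the test (interaction -0.75, limma adjusted p = 0.758). The gene kept its call with each single array left out, and its 2 other probe sets had 0.67 and 0.47.

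Igha was the only tested member of 15 on the list of B and plasma cell markers that passed. Jchain, the joining chain of secreted IgA and IgM, was 219, 250.3, 293, 362 and 468 in wild type at 4 months and 408, 583, 663, 841 and 847 at 10 months, and 372, 389.7, 438, 494 and 558 at 4 months and 331, 502, 534, 561 and 563 at 10 months in dwarf (difference 0.58, limma adjusted p = 0.197). Ighm, the heavy chain of IgM, had 0.23 (limma adjusted p = 0.781), and Cd79a, a signalling chain of the B-cell receptor, -0.73 (limma adjusted p = 0.442). The summed signal of the 15 genes was 3883 to 5043 in wild type at 4 months and 4379 to 7604 at 10 months, and 3324 to 4602 at 4 months and 3786 to 5034 at 10 months in dwarf. The part of plasma cell number in the rise of Igha was not tested.

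The rest of the 18 genes belong to no group fixed here. Ivns1abp, an actin-binding kelch-repeat protein, was 2084, 2130, 2381, 2473 and 2543 in dwarf at 4 months and 2629, 2849, 3324, 3458 and 3583 at 10 months. In wild type it was 1502, 1684, 1862, 2070 and 2071 at 4 months and 2157, 2179, 2645, 2648 and 2889 at 10 months. The ages did not overlap in either genotype, and the rise was 0.44 in dwarf and 0.44 in wild type (SE 0.08 for the pooled value, limma adjusted p = 0.0222). F8a, which encodes a partner of huntingtin, rose by 0.80 (SE 0.15, limma adjusted p = 0.025). Its range was 482 to 746 at 4 months and 955 to 1421 at 10 months in dwarf, apart, and 337 to 805 at 4 months and 603 to 1102 at 10 months in wild type, overlapping. Gm5481, a predicted gene, rose by 0.71 (SE 0.14, limma adjusted p = 0.0259). It spanned 184 to 297 at 4 months and 365 to 499 at 10 months in wild type, apart, and 210.1 to 405 at 4 months and 400.3 to 591 at 10 months in dwarf, where only the ends met.

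**Figure D2:**
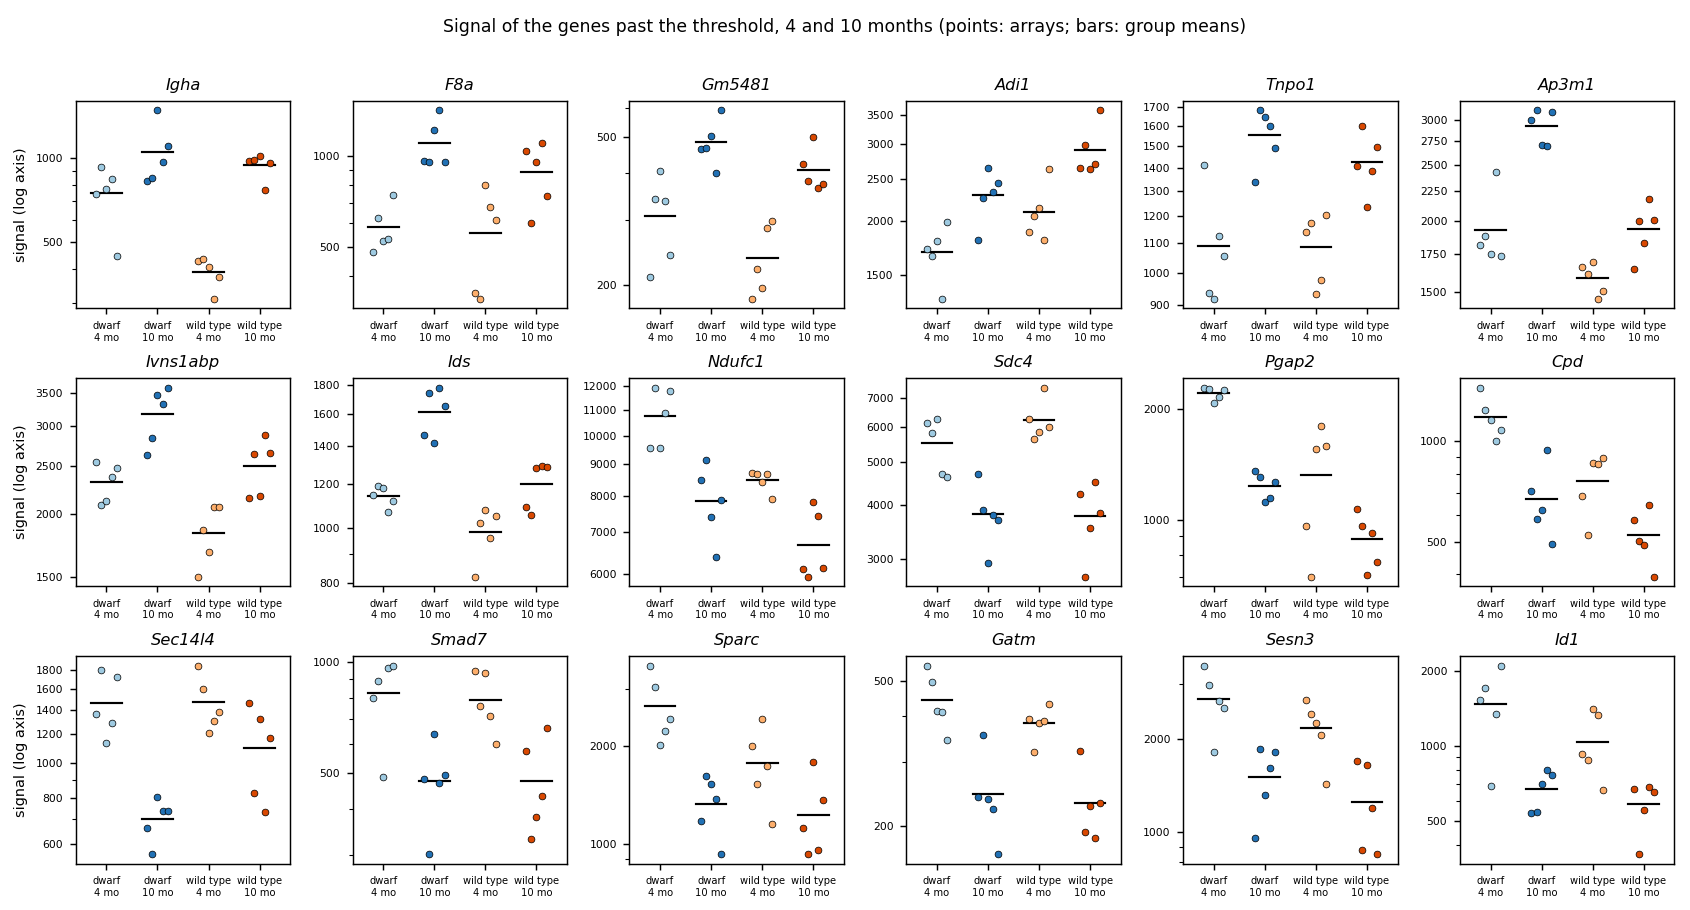
Signal of the 18 genes on each of the 20 arrays, on a log axis, with 1 panel per gene, points for animals of dwarf and wild type at 4 and 10 months and a bar for each group's mean. Ndufc1 and Ivns1abp are the genes whose older and younger animals are apart in both genotypes.

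Of the 18 genes, 16 lay on the side of the pooled change on all 10 older arrays when each array was read against its own genotype's 4-month mean, and Sec14l4 and Sparc did so on 9. The ages were apart in both genotypes for 2 genes, in dwarf alone for 7, in wild type alone for 5 and in neither for 4. Since the genes were chosen on this contrast, these counts describe them and test nothing. The dwarf difference was the larger in 13 of the 18. Over all genes, the ages were apart in both genotypes in the same direction for 0.0135%. The counts for dwarf alone, for wild type alone and for the larger difference were not taken over all genes.

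**Figure D3:**
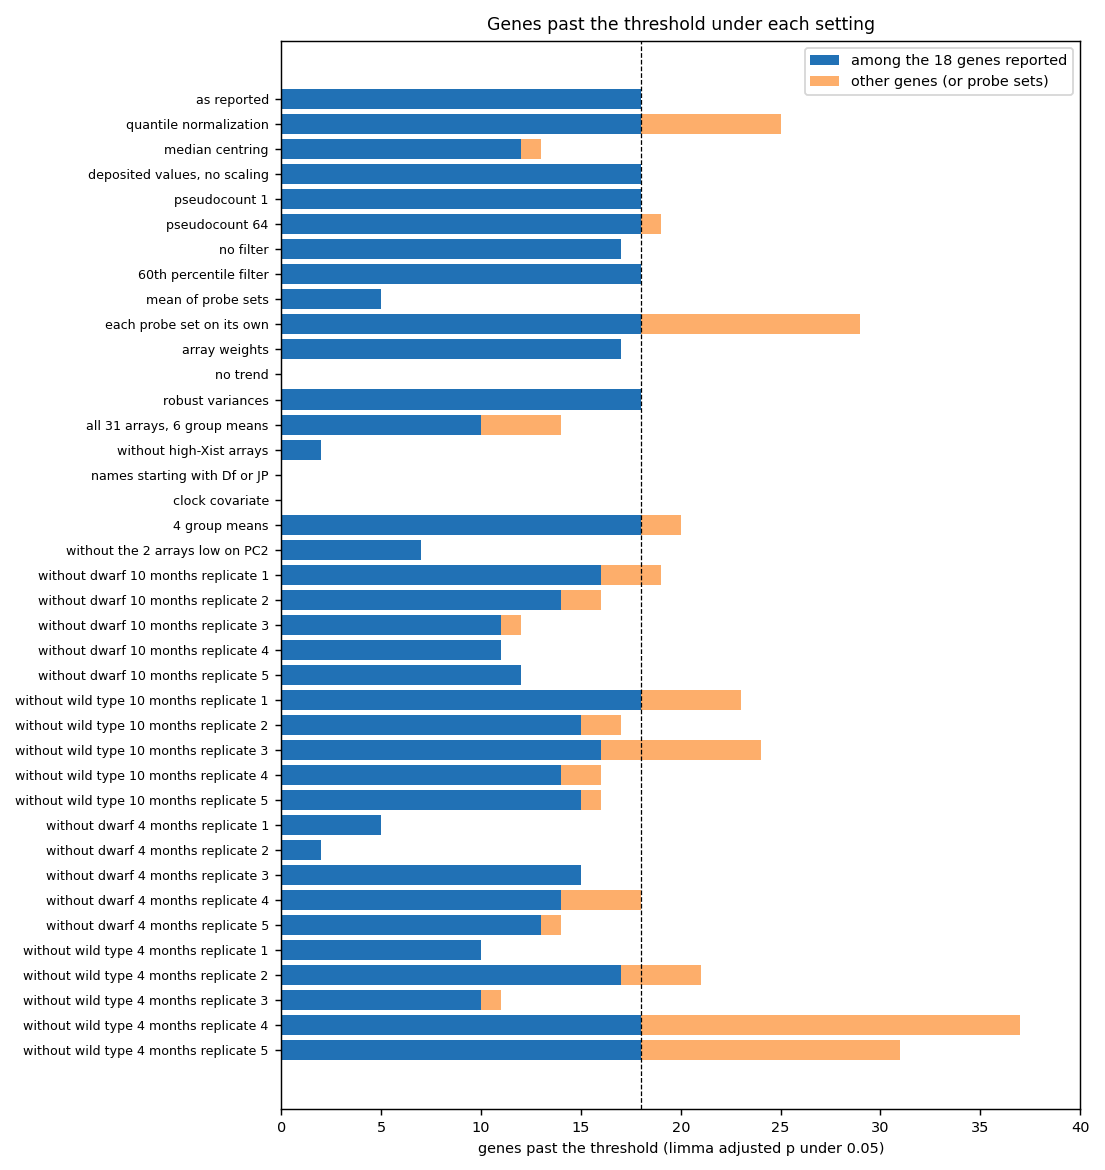
Number of genes past a limma adjusted p of 0.05 between 10 and 4 months over both genotypes, under each way of processing and with each array left out, drawn as bars from 0, with dark parts for the 18 genes reported and light parts for other genes or probe sets. The count is 18 under the settings used here and runs from 0 to 37 over the others.

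Sdc4 and Igha passed with any single array left out. Without replicate 2 of dwarf at 4 months, 2 of the 18 genes passed, although the 18 differences stood at 92.5% to 107% of their values with all arrays. The limma adjusted p of the 18 was then at most 0.0746, and it was 0.0550 for Ivns1abp, Ndufc1, Ap3m1, Gatm, Sec14l4, Sesn3, Id1, Cpd and Tnpo1. Without dwarf 4-month replicate 1 it was 0.0621 for Ap3m1, Gatm, Sec14l4 and Sesn3, 0.0626 for Id1 and 0.0630 for Cpd. Without wild-type 4-month replicate 1 it was 0.0514 for Sec14l4 and 0.0502 for Sesn3, and without wild-type 4-month replicate 3 it was 0.0505 for Id1, Cpd and Tnpo1. Without dwarf 10-month replicate 3 it was 0.0506 for Cpd and 0.0508 for Tnpo1, and without replicate 4 of that group 0.0571 for Tnpo1. The other 7 genes were less stable. F8a and Gm5481 lost the call when any of 7 single arrays was left out, Adi1, Ids and Sparc with any of 11, Pgap2 with any of 12 and Smad7 with any of 14, the adjusted p then being at most 0.0834.

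Probe sets mattered as well. When the probe sets of a gene were averaged, 5 of the 18 genes passed, which were Sdc4, Gatm, Id1, Sec14l4 and Gm5481. Gatm, Id1, Sec14l4 and Gm5481 had no other probe set in the fit, so averaging could not change their differences. Of the 14 genes with other probe sets, Sdc4 alone passed. The 18 differences stood at 28.6% to 100% of their values on the brightest probe set, 100% being that of genes with a single probe set. Averaged, Igha had a difference of 0.67 and Ndufc1 of -0.34, neither past the test. Differences that shrank most on averaging were Cpd to -0.19, Pgap2 to -0.20, Sparc to -0.31, Sesn3 to -0.44, Tnpo1 to 0.20, Adi1 to 0.23, Ids to 0.22 and Ivns1abp to 0.29, and none of these passed.

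The sizes of the changes moved less than the count where arrays were altered. Over 38 other settings, 0 of the 18 genes changed sign. Since the genes were chosen on this contrast and the settings share most arrays, that was likely in advance and tests nothing. Without the dwarf arrays of high Xist the count was 2, Igha and Sdc4, while the 18 differences stood at 91.5% to 112% of their values with all arrays. With arrays of the Df or JP names alone, or with a covariate for the circadian clock genes, the count was 0 with limma (1205 and 1335 genes at an unadjusted p under 0.05). The 18 differences stood at 77% to 115% of their values with those names and at 84.6% to 113% with the covariate. The count was also 0 when the variance was estimated without a trend on signal, where the smallest limma adjusted p was 0.0513 and 1557 genes had an unadjusted p under 0.05. That setting cannot change the differences themselves.

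Taken by genotype, limma called 3 genes in dwarf (0.0202%) and 1 in wild type (0.00673%). Those in dwarf were Ap3m1, Sec14l4 and Scaf11, a splicing-related factor, and that in wild type was Igha. Scaf11 was 3078, 3694, 4064, 4066 and 4840 in dwarf at 4 months and 2378, 2390, 2483, 2500 and 2518 at 10 months, without overlap, and 2807, 2933, 3056, 3250 and 3796 at 4 months and 2577, 2841, 2892, 2915 and 3037 at 10 months in wild type. In dwarf it fell by 0.67 (limma adjusted p = 0.0213), in wild type its difference was -0.14, and over both it had the smallest adjusted p of genes that did not pass, 0.0837. Its other 3 probe sets had pooled differences of -0.09, -0.08 and 0.29, so the fall in dwarf was read on 1 of 4 probe sets. The dwarf count ran from 0 to 8 when 1 array was left out, and the wild-type count from 1 to 5. Without the high-Xist arrays the dwarf count was 0.

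No gene's change differed between the genotypes at an adjusted p of 0.05 with limma (0%), and 964 genes (6.49%) had an unadjusted p under 0.05 for the interaction. The smallest adjusted p was 0.532, for Ptprn, a protein of secretory granules. Its signal was 28, 31.2, 48, 50.2 and 55.1 in dwarf at 4 months and 71.5, 106, 125, 181 and 186 at 10 months, against 134, 185, 217, 274 and 343 at 4 months and 69.2, 81, 93.9, 100.1 and 122 at 10 months in wild type. The older dwarf animals were all above the young ones and the older wild-type animals all below them. The interaction, dwarf minus wild type, was 2.44. Next by adjusted p were Mrpl10, a mitochondrial ribosomal protein (0.82), Gstp3, a glutathione transferase (-0.81), Sst, the hormone somatostatin (-2.19), Tmem126b, an assembly factor of complex I (-1.86), and Fbxl19, an F-box protein (-1.57). Their adjusted p ran up to 0.542.

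Gene lists for liver functions and for the cells a liver piece holds were described by counts and medians. The 42 lists held 976 genes, of which 815 were tested and 2 passed, Igha and Sparc. The median difference of all genes was 0.02 and 46.5% of genes were below 0. The lists with the lowest medians were the immediate early genes at -0.43, the interferon response, oxidative phosphorylation and collagen lists at -0.18 each, and the exocrine pancreas markers (5 genes) and ribosomal proteins at -0.17 each. Those with the highest were cholangiocyte markers and female-biased liver genes at 0.20. These medians depended on single arrays. That of the female-biased genes was 0.08 without wild-type 10-month replicate 4, 0.13 without wild-type 4-month replicate 2, 0.06 with only the Df or JP names, 0.07 with the clock covariate and 0.14 without the high-Xist arrays. That of the cholangiocyte markers was 0.10 without dwarf 4-month replicate 4, 0.12 without wild-type 4-month replicate 2 and 0.13 without dwarf 4-month replicate 1 or without the high-Xist arrays. That of the interferon list was -0.12 without wild-type 10-month replicate 3, and that of the collagen list -0.10 without dwarf 4-month replicate 2. No list median other than that of the immediate early genes and of the cholangiocyte markers lay beyond 0.2 of 0.

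**Figure D4:**
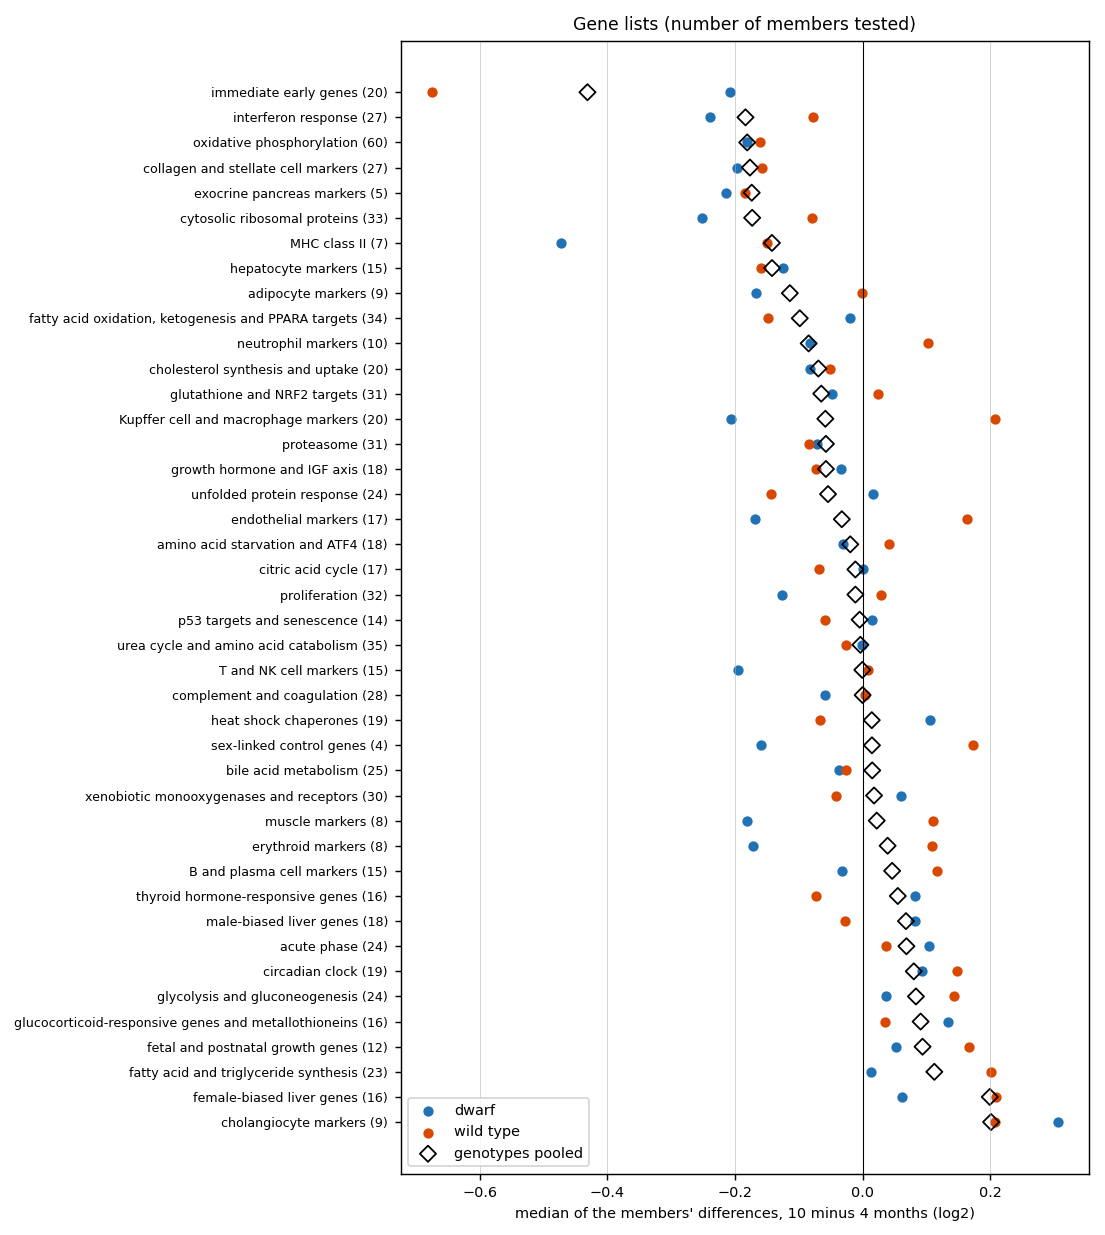
Median log2 difference of 10 minus 4 months of each of the 42 gene lists, in dwarf, in wild type and over both genotypes, with a line at 0. The immediate early genes lie lowest at -0.43, with -0.21 in dwarf and -0.68 in wild type.

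The growth hormone and insulin-like growth factor axis had 18 members tested, 12 of them below 0, and 0 passed with limma (2 at an unadjusted p under 0.05, both lower). Of all genes, 46.5% were below 0 and 5.2% lower at that p. Igf1, the circulating product of the axis, was 15170, 17430, 17860, 18040 and 22600 in wild type at 4 months and 12150, 13160, 13560, 13570 and 14790 at 10 months. The wild-type ages did not overlap, but the dwarf values of 1315, 1862, 2013, 2318 and 2548 at 4 months and 868, 1283, 1583, 1746 and 3586 at 10 months did, and the pooled difference of -0.35 did not pass (limma adjusted p = 0.419). Igfbp3, the main carrier of Igf1 in blood, was 495, 679.8, 713, 715 and 740.2 at 4 months and 370.1, 389, 403, 489 and 510.4 at 10 months in dwarf and 444, 479, 612, 725 and 833 at 4 months and 358, 474, 506, 564 and 694 at 10 months in wild type (difference -0.42, limma adjusted p = 0.217). Ghr, the growth hormone receptor, had -0.09 and Igfals, the acid-labile subunit of the circulating complex, -0.03. Of thyroid hormone-responsive genes, Dio1, which activates thyroid hormone, had -0.81 (limma adjusted p = 0.302) and Thrsp, a lipogenic target, 0.76, neither past the test.

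The interferon response list had 27 members tested, 22 of them below 0 and 0 past the test with limma (5 lower at an unadjusted p under 0.05). Over all genes, 46.5% were below 0 and 5.2% lower at that p. The interferon list's median was -0.24 in dwarf and -0.08 in wild type. MHC class II genes, which present antigen, had a median of -0.47 in dwarf and -0.15 in wild type over 7 members, and 0 passed with limma (3 at an unadjusted p under 0.05). Their summed signal in dwarf was 5482 to 6795 at 4 months and 3053 to 5418 at 10 months, without overlap, and in wild type 3426 to 4608 at 4 months and 3065 to 4110 at 10 months. H2-Aa, an MHC class II alpha chain, was 1147, 1209, 1264, 1301 and 1628 in dwarf at 4 months and 404, 536, 768, 1082 and 1231 at 10 months (difference over both genotypes -0.64, limma adjusted p = 0.124). With a stricter filter on low signal the pooled median of the MHC class II list was -0.31 in place of -0.14, and it was -0.24 without dwarf 10-month replicate 2, -0.26 without wild-type 4-month replicate 2 and -0.25 without wild-type 4-month replicate 5.

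Of 33 cytosolic ribosomal protein genes tested, 29 were below 0 and 14 were lower at an unadjusted p under 0.05, but 0 passed with limma. Over all genes 46.5% were below 0 and 5.2% lower at that p, and in the brightest 10% of genes 59.9% and 13.8%. Rplp2, of the ribosomal stalk, had -0.35 (limma adjusted p = 0.0932). Of the 33, 29 were in the brightest 10% of genes, and quantile normalization brought the median from -0.17 to -0.10. Hepatocyte markers, all 15 in that brightest 10%, had 13 members below 0 and a median of -0.14, which was -0.01 after quantile normalization. Female-biased liver genes included Sult1e1, an oestrogen sulfotransferase, at 1.27 and Cyp2b9, a cytochrome P450, at 0.60, and none passed. Among cholangiocyte markers Sox9, a duct transcription factor, had 1.04, and the list's median was -0.06 with the stricter filter.

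The circadian clock is a loop in which Arntl and Clock drive Per, Cry and Nr1d genes, whose products repress Arntl and its partners, while Dbp, Tef and Hlf act on outputs with the opposing Nfil3. In liver its transcripts rise and fall within each day, and the labels do not give the time of day. Of 19 clock genes tested, 0 passed between 10 and 4 months with limma (8 at an unadjusted p under 0.05, against 11.1% of all genes), and their median was 0.08. The larger difference was that of wild type in 15 of 19, and it was beyond 0.5 in size for 14 genes in wild type and 1 in dwarf. The difference between the genotypes was not tested for this list, and no gene passed for the interaction. The same counts were not taken over all genes.

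Some clock genes have in their promoters the short sequences that the loop reads, and 3 such promoters are shown beside the values of their genes. An E-box is CACGTG, read by Arntl and Clock, and a D-box is TTATGTAA, read by Dbp, Tef and Hlf. Both strands were searched over the 250 bases before and 50 after each gene's start, in RefSeq promoters on GRCm38.p6, in which 17 of the 19 genes were matched. An E-box was in 5 of 17 clock genes (29.4%) against 2187 of 27025 genes of the table (8.09%), and a D-box in 1 of 17 (5.88%) against 299 of 27025 (1.11%). The immediate early genes had an E-box in 6 of 18 (33.3%), a share no lower than that of the clock genes. Of the 18 genes that changed, 12 were matched and 1 held an E-box (8.33%). A match is a description and does not show that a factor binds. Capitals mark E-boxes in Ciart, on the minus strand at chr3:95882179-95882478, and in Tef, on the plus strand at chr15:81802423-81802722, and D-boxes in Per3, on the minus strand at chr4:151044616-151044915, each read along the gene's strand.
Ciart: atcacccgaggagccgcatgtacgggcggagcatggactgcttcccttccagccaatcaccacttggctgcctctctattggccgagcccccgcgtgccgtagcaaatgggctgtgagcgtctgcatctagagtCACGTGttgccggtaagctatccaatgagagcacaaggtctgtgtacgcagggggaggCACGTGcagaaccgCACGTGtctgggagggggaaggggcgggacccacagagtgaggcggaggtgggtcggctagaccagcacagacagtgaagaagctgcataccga
Tef: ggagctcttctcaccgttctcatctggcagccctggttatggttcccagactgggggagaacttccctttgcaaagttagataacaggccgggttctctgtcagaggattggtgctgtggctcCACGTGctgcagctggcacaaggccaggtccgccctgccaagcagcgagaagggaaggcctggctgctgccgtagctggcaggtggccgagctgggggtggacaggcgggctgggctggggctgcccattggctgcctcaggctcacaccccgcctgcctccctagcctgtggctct
Per3: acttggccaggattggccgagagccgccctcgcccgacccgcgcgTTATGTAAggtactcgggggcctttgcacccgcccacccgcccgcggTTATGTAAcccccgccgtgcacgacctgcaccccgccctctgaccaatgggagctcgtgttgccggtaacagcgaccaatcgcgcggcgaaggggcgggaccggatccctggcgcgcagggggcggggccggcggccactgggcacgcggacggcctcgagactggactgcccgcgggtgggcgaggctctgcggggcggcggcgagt

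The activator Arntl, at the top of the loop, was 532, 585, 824, 842 and 862 in wild type at 4 months and 62.2, 176, 202, 645 and 709.7 at 10 months. In dwarf it was 225, 322, 395, 649.8 and 769.8 at 4 months and 151, 195, 283, 409 and 1021 at 10 months. In wild type 2 older animals stood among the young and 3 far below them, and in dwarf the ages overlapped throughout (-1.41 in wild type, -0.38 in dwarf, pooled -0.90, limma adjusted p = 0.356). Clock, its partner, had -0.32 over both genotypes, the Arntl activator Rora -0.41 (limma adjusted p = 0.111) and the Arntl repressor Nr1d1 -0.54.

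Several targets and outputs of the loop had differences above 0, and none passed the test. Tef, whose promoter holds an E-box, was 1467, 1575, 1633, 1875 and 2357 in wild type at 4 months and 2498, 2534, 3990, 4075 and 4958 at 10 months, with no overlap. In dwarf it was 2030, 3082, 4242, 4396 and 4555 at 4 months and 2717, 4225, 4382, 4579 and 5500 at 10 months, overlapping (0.98 in wild type, 0.25 in dwarf, pooled limma adjusted p = 0.145). Per3, a period gene with D-boxes in its promoter, was 233, 237, 315, 356 and 424 in wild type at 4 months and 417, 467, 958, 991 and 991 at 10 months, where only the lowest older animal met the young (1.18, and 0.09 in dwarf). Dbp spread widely within every group, from 468 to 1964 in wild type at 4 months and from 887 to 7655 at 10 months (1.85, and -0.14 in dwarf). Ciart, a repressor whose promoter holds E-boxes, had 0.99 over both genotypes, Per2 0.81, Usp2, a deubiquitinase of the clock, 0.71 and Nr1d2 0.56. The clock genes Bhlhe41, Cry1 and Per1 hold an E-box too, and not all of them rose. In wild type the mean signal at 4 and 10 months was 101.5 and 56.65 for Bhlhe41, 261.2 and 240.8 for Cry1 and 82.39 and 199.3 for Per1. In dwarf the means were 88.99 and 102.1, 144.3 and 162.5, and 624.7 and 681.8.

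The first principal component of the clock genes, 53.5% of their variance, averaged -3.54 in young wild type (range -5.21 to -1.13) and 0.95 in older wild type (-2.66 to 3.86). In dwarf it averaged 0.96 in the young (-4.26 to 4.87) and 1.63 in the older (-1.91 to 3.61). All young wild-type animals lay below 0 on this axis, and each of the other 3 groups spanned 0. With this component as a covariate, 0 of the 18 genes kept a limma adjusted p under 0.05, and their differences were 84.6% to 113% of those without it. The part of sampling time in these differences was not tested. The list's pooled median moved from 0.08 to 0.30 without the high-Xist arrays, to 0.29 without dwarf 10-month replicate 1 and to 0.32 without dwarf 4-month replicate 5.

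**Figure D5:**
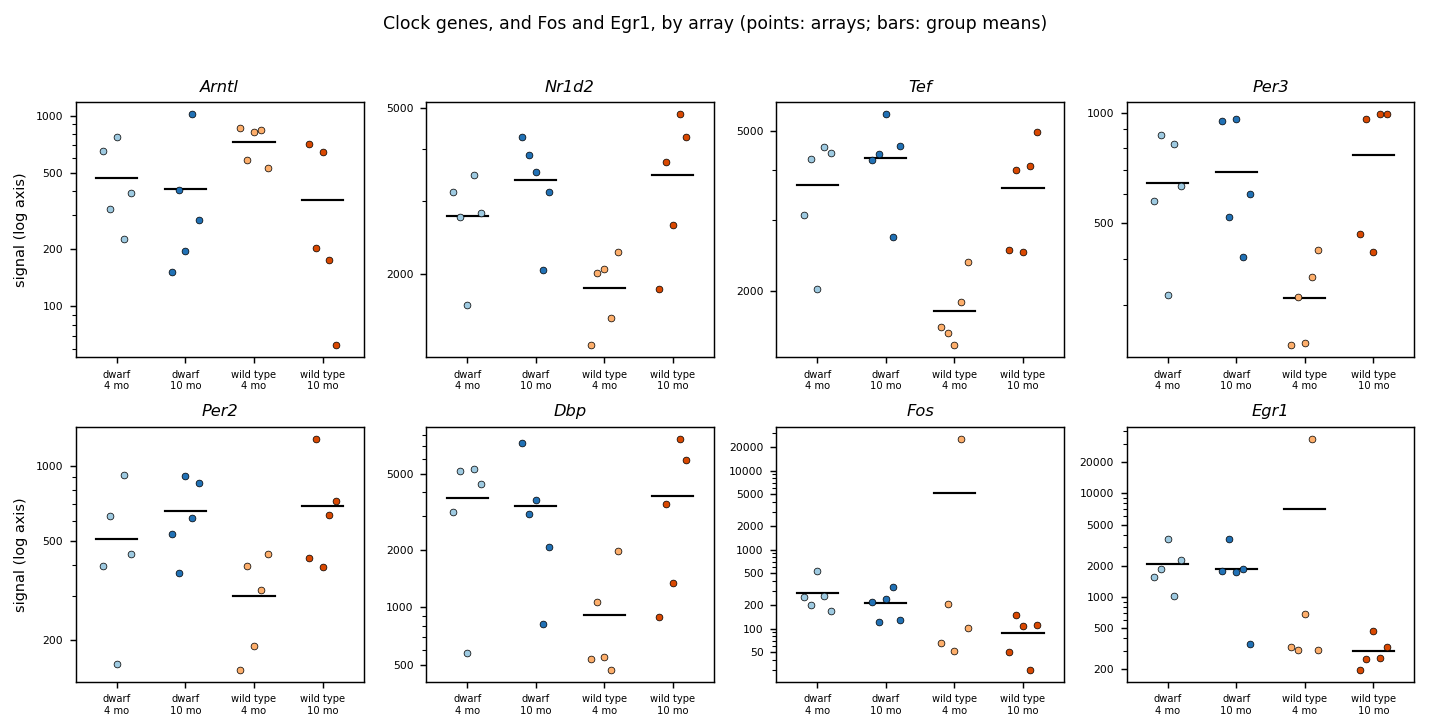
Signal on a log axis of Arntl, Nr1d2, Tef, Per3, Per2 and Dbp of the clock and of the immediate early genes Fos and Egr1, with 1 point per animal in the 4 groups and bars at group means. Young wild-type animals lie at the high end for Arntl and toward the low end for Tef and Per3, and for Fos and Egr1 a single young wild-type animal stands at 25320 and 33820.

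Immediate early genes are switched on within minutes by growth factors and stress. Their median difference was the lowest of all lists, -0.43, with 17 of 20 below 0 and 0 past the test with limma (2 lower at an unadjusted p under 0.05). Among all genes, 46.5% were below 0 and 5.2% lower at that p. Most of the list's shift rests on 1 animal, wild type at 4 months replicate 4, which had the highest signal of its 5 arrays for 20 of the 20 genes. Fos was at 52.4, 65.8, 101, 208 and 25320 in that group and at 29.8, 50.9, 107, 111 and 149 in wild type at 10 months. Egr1 was at 303, 305, 330, 678 and 33820 at 4 months and 195, 253, 253, 327 and 471 at 10 months. Without that array the median over both genotypes was -0.13 and that of wild type -0.03, with 14 of 20 below 0, and Fos had -0.30 (limma adjusted p = 0.759).

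Larger estimated differences came with wider errors. Foxc1, a forkhead factor, was 11.5, 18.3, 25.3, 28 and 87.5 in wild type at 4 months and 86.2, 112, 132, 175 and 245 at 10 months, and 12.9, 14.1, 23.1, 23.9 and 31.5 at 4 months and 19.3, 28.6, 132, 194 and 290.1 at 10 months in dwarf (difference 1.69, SE 0.40, limma adjusted p = 0.0932). It was the largest estimated difference of all genes, at signals near the low end of the arrays. Lcn2, an acute phase lipocalin that neutrophils carry too, was 104, 448, 503, 906 and 1248 in dwarf at 4 months and 599, 1060, 1114, 2457 and 2820 at 10 months, and 136, 171, 203, 247 and 288 at 4 months and 283, 289.7, 310, 428 and 1649 at 10 months in wild type (difference 1.28, limma adjusted p = 0.16). Sult1e1 was 4655, 4935, 4988, 6190 and 6840 in dwarf at 4 months and 8141, 8736, 9609, 10480 and 11230 at 10 months, apart, while in wild type it was 29.5, 50.6, 51.7, 144 and 175 at 4 months and 40.2, 178, 231, 931 and 978 at 10 months (difference 1.27, limma adjusted p = 0.177). Gjc1, a gap junction connexin, had -1.21 (limma adjusted p = 0.108), with 94, 144, 151, 151 and 164 in dwarf at 4 months and 13.7, 25.5, 35.1, 46.6 and 75.8 at 10 months. Serpinb1a, an inhibitor of neutrophil proteases, had 2.31 in wild type and 0.05 in dwarf, which did not pass as an interaction (limma adjusted p = 0.542).

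The 22-month arrays share the 4-month arrays with this comparison, so their values stand beside it and are not independent of it. For Igha the difference of 22 minus 4 months was 0.65 in dwarf and 2.06 in wild type, against 0.49 and 1.24 at 10 months. For Ndufc1 it was -0.56 and -0.40, against -0.45 and -0.35. For Sdc4 it was -0.48 in dwarf and 0.09 in wild type, against -0.53 and -0.74, and for Gatm -0.16 and 0.07, against -0.84 and -0.71. Id1 had -0.94 and -0.36 at 22 months, Sesn3 -0.92 and -0.31, and Sparc -0.57 and -1.48. Of the other genes that fell, Smad7 had -0.86 and -0.44, Pgap2 -0.95 and -0.44, Cpd -0.81 and -0.52, and Sec14l4 -0.68 and -0.16. Of the other genes that rose, F8a had 0.44 and 0.45, Gm5481 0.52 and 0.92, Adi1 0.45 and 0.26, and Tnpo1 0.26 and 0.16. Ap3m1 had 0.28 and 0.17, Ivns1abp 0.29 and 0.38, and Ids 0.27 and 0.34.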

How the data were processed

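Liver RNA of single animals was measured on Affymetrix arrays, and the titles put each array in its group. The values the authors deposited are linear signal intensity from MAS5, per the submitters' processing notes. Its version is not given in the sources used here, nor is its target signal. After trimming 2%, array means lay between 494.6 and 496, and all arrays were brought to 500 (factors 1.008 to 1.011). No value column went unused, and 0 pairs of arrays were identical.

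The table had 45037 probe sets, 34945 with 1 gene symbol, 932 with several and 9160 with none here, from the platform annotation, in which 0 symbols needed updating. A probe set was kept when it exceeded its array's 40th percentile on 5 or more of the 20 arrays. This kept 31914 probe sets, 25965 of them named by a single symbol. Each of 14861 genes was read on its brightest probe set by mean log2 value. All tests were on log2 of signal plus 16, and differences, 10 minus 4 months, understate those of genes with low signal. In R 4.3.3, limma 3.58.1 with a mean-variance trend was fitted with age and genotype as terms, and to the 4 group means for the change within each genotype and for the interaction, which is the change in dwarf minus that in wild type. P-values were adjusted by Benjamini-Hochberg across all genes and called at 0.05. The fits were tested on simulated data. Arrays give no count depth, so their number limits the precision. P-values measure the spread between these animals.

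The comparison, gene lists and alternatives were chosen with earlier results of these data known. Genes named are those past the threshold with the same sign in both genotypes (at most 15 a direction, so all 18), the 6 of smallest adjusted p for the interaction, those past within a genotype, list members that passed or whose role is central, and sex-linked genes and Igf1 as checks. The largest estimated differences and the BMP genes were chosen after their values were seen. Alternatives were other scaling and normalization, pseudocounts of 1 and 64, other filters and probe set rules, other variance models, fewer or more arrays, and each array left out. Leaving out the 2 arrays low on the second principal component, wild type at 4 months replicate 2 and dwarf at 10 months replicate 2, was chosen after seeing the data. RefSeq promoters were matched by symbol.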

Additional observations from a re-analysis of the deposited data

Results flagged for a closer look

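Single arrays that stood apart from the other 4 of their group, by the gap to the nearest array exceeding 0.71 of the group's range, were sought in 69 genes and 276 groups. Chance alone gives such an array in about 1 in 20 groups.

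Wild type at 4 months replicate 4 stood high for the immediate early genes Fos (25320), Egr1 (33820), Zfp36 (18630), Nr4a1 (2850), Junb (10930) and Jund (9248), and for Serpinb1a (129.8). Among the genes that changed, the array apart was wild type at 10 months replicate 4 for Igha (767.3), low in its group, and dwarf at 4 months replicate 4 for Ap3m1 (2432), high in its group. In both cases the departure was toward the other age.

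Among BMP-related genes, values apart were Id2 at 10150 in wild type at 4 months replicate 2, Id3 at 2694 in wild type at 10 months replicate 1, Smad6 at 275.8 in dwarf at 10 months replicate 2 and Bambi at 567.2 in dwarf at 4 months replicate 1. Dwarf at 10 months replicate 2 also stood apart for Jchain (331.4) and Ndufs7 (5681), and dwarf at 4 months replicate 2 for Igfbp3 (495.3) and Gjc1 (94.02). Fos was apart at 536.2 in dwarf at 4 months replicate 3.

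For genes with large estimated differences, values apart were Foxc1 at 87.55 in wild type at 4 months replicate 2, Rab6b at 804.2 in wild type at 4 months replicate 5, Lcn2 at 1649 in wild type at 10 months replicate 2, Gpaa1 at 3106 in dwarf at 4 months replicate 5, Igsf6 at 80.68 in dwarf at 4 months replicate 1 and Serpinb1a at 1487 in dwarf at 10 months replicate 5. Among genes listed for the interaction they were Sst at 133.6 in dwarf at 10 months replicate 4, Tmem126b at 204.8 in dwarf at 4 months replicate 1 and Fbxl19 at 294.9 in wild type at 10 months replicate 5.

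Among the 6 genes of smallest adjusted p for the interaction, 4 had all older arrays of 1 genotype above its 4-month mean and all of the other below. The genes were picked by their interaction, and a count over all genes was not taken. Their interactions, dwarf minus wild type, were 2.44 for Ptprn, 0.82 for Mrpl10, -2.19 for Sst and -1.57 for Fbxl19, and limma gave adjusted p of 0.532, 0.542, 0.542 and 0.542.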

How the results depend on the processing

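No paired analysis was possible because each animal belongs to a single group and names give no shared replicate numbers.

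The count of 18 genes over both genotypes was 5 with probe sets averaged per gene, 29 with each probe set on its own, 0 without a trend in the variance, 2 without the high-Xist arrays, 0 with only the Df or JP names, 0 with a clock covariate, and 7 without the 2 arrays low on the second principal component. It ran from 2 to 37 with 1 array left out. The dwarf count of 3 was 6 with quantile normalization, 0 with the mean of probe sets, 5 with each probe set, 0 without a trend, 1 with all 31 arrays, 0 without the high-Xist arrays and 7 with only the Df or JP names, and ran from 0 to 8 with 1 array left out. The wild-type count of 1 was 0 with the mean of probe sets, 0 with all 31 arrays, 2 with only the Df or JP names and 0 with the clock covariate, and ran from 1 to 5. The interaction count of 0 was 1 without a trend and ran from 0 to 1. Fewer arrays entered the fits without the high-Xist arrays, with the names and with 1 array left out, and otherwise the cause was not tested.

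Single genes kept their sign in all 684 combinations of the 18 genes with 38 settings, and kept their side of the threshold in 478. The genes were chosen on this contrast and the settings share most arrays, so the kept signs tell little. Calls held in 35 settings for Sdc4, 33 for Igha, 32 for Ndufc1 and Gatm, and from 15 (Smad7) to 30 for the others. Averaging probe sets left differences at 28.6% to 100% of their value, 100% being that of genes with a single probe set. Of 27 other probe sets of 14 genes, 21 had the same sign and 0 passed. List medians were flagged as moved, by a rule on their spread, in 6 of 1596 combinations, all of the clock, MHC class II and cholangiocyte lists. The rule passed over other moves, such as that of the immediate early genes from -0.43 to -0.13 without 1 array. With 5 arrays a group and most standard errors above 0.1, changes of the size found here pass for some genes only, and genes below the filter were not assessed.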

Other observations

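Metabolic lists not described above lay near the median of all genes. Fatty acid oxidation and PPARA target genes had 26 of 34 below 0 and a median of -0.10, and fatty acid and triglyceride synthesis genes had 15 of 23 above 0 and a median of 0.11, with 0 past the test in either with limma (7 and 6 at an unadjusted p under 0.05). Of all genes, 46.5% were below 0 and 11.1% reached that p. Fasn, which builds palmitate, had a difference of 0.61 (limma adjusted p = 0.383). Glycolysis and gluconeogenesis genes had 18 of 24 above 0, and urea cycle and amino acid catabolism genes 16 of 35, with medians of 0.08 and 0.00. Bile acid genes had a median of 0.02 over 25 members, with 0 past the test and 0 at an unadjusted p under 0.05 with limma.

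Proteasome subunits had 28 of 31 below 0, at a median of -0.06, and 23 of them were in the brightest 10% of genes, in which 59.9% were below 0. Kupffer cell and macrophage markers had a median of -0.21 in dwarf and 0.21 in wild type over 20 members, and endothelial markers -0.17 and 0.16 over 17. The difference between the genotypes was not tested for these lists, and 0 of their members passed over both genotypes with limma (2 and 1 at an unadjusted p under 0.05, against 11.1% of all genes).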
